A study of Mus musculus with 908 samples.

Results

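The genes described here encode the parts of the hemidesmosome and of its laminin anchor as measured cell by cell in squamous cell carcinomas of mouse skin. They are Itga6 and Itgb4 (integrin α6 and β4), Itga3 and Itgb1 (integrin α3 and β1), Col17a1 (collagen XVII), Dst (dystonin, whose epithelial form is the plaque protein BPAG1e), and Lama3 and Lamb3 (the α3 and β3 chains of laminin-332). They were chosen by gene symbol, as 8 of the 46517 genes in the tables. Dst had 2 rows, and the row of the annotated Dst gene was used for every value, while the other row is described separately. Hemidesmosomes rivet basal keratinocytes to the basement membrane. Integrin α6β4 binds laminin-332 outside the cell and plectin and BPAG1e inside it, and collagen XVII spans the membrane beside it. Integrin α3β1 binds the same laminin but links to actin, and keratinocytes normally lose these proteins as they leave the basal layer and differentiate.

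Each library came from 1 sorted cell and was made by the full-length Smart-seq2 protocol. Cells after adoptive cell transfer (an immunotherapy with infused immune cells) came from mice of the strain TRE-OVA;TRE-HrasG12V:PGK-rtTA3P2AmCherry and were sorted as mCherry+, with no sort on integrin α6, CD34 or CD44 named. All other cells were taken before therapy from the strain TRE-HrasG12V;SBE-mCherry-PGK-rtTA3, in which mCherry is driven by a SMAD-binding element that responds to TGF-beta. Reporter-positive cells were integrin α6+, mCherry+, CD34+ and CD44+. CD44+ cells were integrin α6+ and CD44+ without mCherry or CD34. CD44-negative α6+ cells had integrin α6 alone, and α6-negative cells had none of these markers. All mice were aged P60 to P90 with mixed sex, carried the inducible activated Hras transgene, and all sorts removed cells with CD45, CD117, CD140a or CD31. Integrin α6 protein was thus a sorting marker, so the level of Itga6 across gates is partly set by the sort, and the therapy cannot be told apart from the strain or from the sort.

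Libraries with at least 2000 genes detected (TPM of at least 1) came from 87 and 90 cells after transfer on plates named OT2 and OT_B, from 73 and 32 reporter-positive cells on plates CSC1 and CSC2, and from 15 CD44+, 91 CD44-negative α6+ and 43 α6-negative cells on 1 plate each. The median number of genes detected was 6657 in cells after transfer, 7760 in reporter-positive, 7222 in CD44+, 6810 in CD44-negative α6+ and 5521 in α6-negative cells. Of marker lists for 6 cell types, that of keratinocytes had the highest mean log2(TPM + 1), or led, in every cell except 3 of the 15 CD44+ and 16 of the 43 α6-negative cells, in which fibroblast or pericyte and muscle markers led. The labels name no animal, so each group counted as 1 sample and no difference below carries a test. Libraries of all but 7 of the reporter-positive cells and of all 15 CD44+ cells were matched by whole profile to a library on another plate that is labelled after therapy. The median correlation of matched profiles was 0.913 for CSC1, 0.907 for CSC2 and 0.930 for CD44. The lowest was 0.850 for CSC1, 0.668 for CSC2 and 0.824 for CD44. Which label holds for these cells could not be settled, and results that rest on these cells are given with that limit. Y-linked transcripts were found in 99 reporter-positive cells and Xist in 14 of 15 CD44+ cells, so these gates also differed in the sex of the animals. Of the 91 CD44-negative α6+ cells, 43 had Xist and 45 had Y-linked transcripts, with 1 cell in both counts. Xist was found in 0 cells after transfer and in 0 α6-negative cells.

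The start sites of the 5 genes for which a window was at hand are shown first, and Itga6, Itgb4 and Lama3 had none. These are 300-base windows from 250 bases before to 50 bases after a RefSeq gene start on GRCm38.p6. They are written 5′ to 3′ on the gene's strand. Capitals mark GGGCGG, the core of the GC box bound by Sp1 family factors, and TGANTCA, the AP-1 motif, each searched on both strands. Of the genes shown, Lamb3, Col17a1 and Itga3 had transcripts close to 0 in α6-negative cells. Itgb1 and Dst were also present in cells led by fibroblast markers. Both starts are shown for Itga3 and Dst, and the upstream one of a pair of overlapping windows for Lamb3.
Lamb3, chr1:193301744-193302043, plus strand: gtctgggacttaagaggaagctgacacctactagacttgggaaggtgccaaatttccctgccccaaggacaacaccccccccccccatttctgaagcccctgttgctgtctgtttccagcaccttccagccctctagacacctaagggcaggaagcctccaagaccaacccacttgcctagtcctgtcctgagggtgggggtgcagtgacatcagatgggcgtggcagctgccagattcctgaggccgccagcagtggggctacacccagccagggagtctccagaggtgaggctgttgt
Col17a1, chr19:47691993-47692292, minus strand: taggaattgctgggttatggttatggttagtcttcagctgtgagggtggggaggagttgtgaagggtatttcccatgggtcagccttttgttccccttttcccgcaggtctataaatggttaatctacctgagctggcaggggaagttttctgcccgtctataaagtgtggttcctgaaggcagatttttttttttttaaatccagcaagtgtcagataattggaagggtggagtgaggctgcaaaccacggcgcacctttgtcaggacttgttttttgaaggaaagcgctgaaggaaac
Itga3, upstream start, chr11:95076665-95076964, minus strand: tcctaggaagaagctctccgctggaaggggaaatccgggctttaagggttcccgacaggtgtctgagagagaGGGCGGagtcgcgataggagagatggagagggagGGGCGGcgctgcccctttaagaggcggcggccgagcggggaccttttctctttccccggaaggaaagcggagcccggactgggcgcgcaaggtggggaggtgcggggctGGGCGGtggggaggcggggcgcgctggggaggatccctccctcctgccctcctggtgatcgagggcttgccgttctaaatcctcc
Itga3, downstream start, chr11:95069149-95069448, minus strand: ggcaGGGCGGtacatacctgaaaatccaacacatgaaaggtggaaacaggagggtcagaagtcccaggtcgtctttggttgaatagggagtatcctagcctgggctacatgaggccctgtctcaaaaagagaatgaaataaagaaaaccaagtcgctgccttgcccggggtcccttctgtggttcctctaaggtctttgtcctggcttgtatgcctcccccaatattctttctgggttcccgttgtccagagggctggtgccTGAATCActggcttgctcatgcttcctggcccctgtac
Itgb1, chr8:128685404-128685703, plus strand: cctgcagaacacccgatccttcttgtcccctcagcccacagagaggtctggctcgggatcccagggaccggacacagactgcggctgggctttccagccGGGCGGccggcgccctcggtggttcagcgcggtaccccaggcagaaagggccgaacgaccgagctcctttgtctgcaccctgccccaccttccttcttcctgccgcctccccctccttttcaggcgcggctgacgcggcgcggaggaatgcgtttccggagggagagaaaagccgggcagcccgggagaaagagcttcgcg
Dst, upstream start, chr1:34011345-34011644, plus strand: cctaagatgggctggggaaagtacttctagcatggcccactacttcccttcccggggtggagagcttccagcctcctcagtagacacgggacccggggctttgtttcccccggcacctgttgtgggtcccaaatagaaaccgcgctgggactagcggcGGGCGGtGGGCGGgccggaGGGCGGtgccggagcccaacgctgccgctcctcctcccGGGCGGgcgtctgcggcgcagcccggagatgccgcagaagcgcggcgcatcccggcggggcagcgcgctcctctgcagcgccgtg
Dst, downstream start, chr1:34160010-34160309, plus strand: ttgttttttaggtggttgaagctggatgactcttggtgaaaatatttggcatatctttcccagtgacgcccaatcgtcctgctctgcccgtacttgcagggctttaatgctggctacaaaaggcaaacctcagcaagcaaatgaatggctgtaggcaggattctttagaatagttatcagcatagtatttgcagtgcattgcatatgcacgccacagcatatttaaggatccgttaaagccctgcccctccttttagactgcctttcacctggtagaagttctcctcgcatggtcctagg

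The windows of Lamb3 and Col17a1 held 2 and 5 CpG dinucleotides and no GC box, and the second window of Lamb3 held 5 CpGs and no GC box. The upstream start of Itga3 held 24 CpGs and 3 GC boxes, and its downstream start 5 CpGs and 1 GC box. The window of Itgb1 held 27 CpGs and 1 GC box. The upstream start of Dst held 31 CpGs and 4 GC boxes, and its downstream start 6 CpGs and none. Over 32851 RefSeq windows the median was 7 CpGs, with quartiles of 3 and 20, and 35.7% held a GC box. The AP-1 motif, present in 7.81% of all windows, was found once, in the downstream start of Itga3. None of the windows held the SMAD-binding palindrome GTCTAGAC, present in 0.213% of all windows. The table held entries for 5 of the 8 genes, with none for Itga6, Itgb4 or Lama3. In the GENCODE M21 annotation of mm10, all 8 are protein-coding genes, with Itga6 at chr2:71745616-71858416, Itgb4 at chr11:115974709-116008412, Itga3 at chr11:95044474-95076801, Itgb1 at chr8:128685654-128733200, Col17a1 at chr19:47646344-47692094, Dst at chr1:33908225-34308661, Lama3 at chr18:12333819-12583013 and Lamb3 at chr1:193207699-193343878. Values were per gene, so the epithelial and other forms of Dst and the forms of Lama3 could not be told apart. Antisense or other genes overlapped Itga6, Itgb4, Dst, Lama3 and Lamb3, and the highest mean of any of them was 2.25 TPM.

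Integrin α6β4, the laminin receptor of the hemidesmosome, was detected in most cells sorted on α6 and far less evenly elsewhere. TPM, the unit of every level below, is a share of a library's transcripts corrected for gene length. Itgb4 had a median of 1.81 TPM (lowest 0, highest 1279.67) in cells after transfer. Its median was 246.57 TPM (0 to 1683.07) in reporter-positive cells, 39.51 TPM (0 to 144.6) in CD44+ cells and 58.73 TPM (0 to 469.16) in CD44-negative α6+ cells. In α6-negative cells it was 0 TPM (0 to 149.84). The ranges of all gates overlapped, and the reporter-positive median was the highest. Itgb4 was detected in 53.7% of cells after transfer, 97.1% of reporter-positive, 12 of 15 CD44+, 90.1% of CD44-negative α6+ and 6.98% of α6-negative cells. The 95% Clopper-Pearson intervals, which cover counting error only, were 46.04% to 61.2% after transfer and 91.9% to 99.4% in reporter-positive cells. They were 82.1% to 95.4% in CD44-negative α6+ cells and 1.46% to 19.1% in α6-negative cells. The share after transfer therefore lay between those of the α6-sorted gates and of the α6-negative gate.

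Itga6, the partner of Itgb4, had a median of 11.41 TPM in cells after transfer, 63.72 TPM in reporter-positive, 17.75 TPM in CD44+, 33.98 TPM in CD44-negative α6+ and 0 TPM in α6-negative cells. It was detected in 83.6% of cells after transfer, and in 34.9% (15 of 43) of the cells sorted as lacking α6 at the surface. The 2 subunits parted after transfer: 91 cells (51.4%) had both transcripts, 57 had Itga6 without Itgb4 and 4 had Itgb4 without Itga6. Among CD44-negative α6+ cells 81 of 91 had both and 6 had Itga6 alone. Itga6 was thus the most widely detected of the 8 genes after transfer.

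Integrin α3β1 differed in its 2 subunits. Itga3 had a median of 0 TPM in cells after transfer (highest 707.11), 56.88 TPM in reporter-positive (highest 640.56), 11.67 TPM in CD44+ (highest 206.5), 26.87 TPM in CD44-negative α6+ (highest 382.08) and 0 TPM in α6-negative cells (highest 6.14). It was detected in 33.3% of cells after transfer, 80.95% of reporter-positive, 9 of 15 CD44+, 71.4% of CD44-negative α6+ and 2.33% of α6-negative cells. Only 1 of 43 α6-negative cells had it. Itgb1, the β subunit that many integrins share, had a median of 0.83 TPM after transfer, 50.90 TPM in reporter-positive, 19.85 TPM in CD44+, 15.77 TPM in CD44-negative α6+ and 0 TPM in α6-negative cells. In the α6-negative gate the mean was nevertheless 43.3 TPM, with an upper quartile of 86.69 TPM, so the cells of this gate split into high and absent.

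Col17a1 and Dst, a transmembrane collagen and a plaque linker to keratin filaments, did not follow the integrins in the reporter-positive gate. Col17a1 averaged 51.2 TPM in cells after transfer, 131.2 TPM in reporter-positive, 80.9 TPM in CD44+, 116.8 TPM in CD44-negative α6+ and 2.36 TPM in α6-negative cells. Dst averaged 15.8 TPM in cells after transfer, 22.6 TPM in reporter-positive, 28.2 TPM in CD44+, 30.3 TPM in CD44-negative α6+ and 24.6 TPM in α6-negative cells, the narrowest spread of the 8 genes. Dst was detected in 53.5% of α6-negative cells, whereas Col17a1 was detected in 9.30% of them. Dst was the lowest of the 8 in mean level in cells after transfer and in reporter-positive cells, and Lama3 was the lowest in CD44+ and CD44-negative α6+ cells.

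Lama3 and Lamb3 encode chains of laminin-332, which keratinocytes secrete as the ligand of both integrins, and Lamb3 reached the highest single value of the 8 genes in these gates. Lamb3 had a median of 0 TPM in cells after transfer (highest 1497.81), 160.24 TPM in reporter-positive (highest 1883.69), 13.45 TPM in CD44+ (highest 228.49), 27 TPM in CD44-negative α6+ (highest 974.42) and 0 TPM in α6-negative cells (highest 1.33). Lama3 had medians of 4.18 TPM in cells after transfer, 71.60 TPM in reporter-positive, 11.19 TPM in CD44+, 7.95 TPM in CD44-negative α6+ and 0 TPM in α6-negative cells. In every gate sorted on α6 and after transfer the mean of Lamb3 was above that of Lama3, by a ratio of 1.56 after transfer, 2.17 in reporter-positive, 1.89 in CD44+ and 2.60 in CD44-negative α6+ cells. They also parted in detection. After transfer 58 cells had both Lama3 and Lamb3, 58 had Lama3 alone and 8 had Lamb3 alone.

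**Figure D1:**
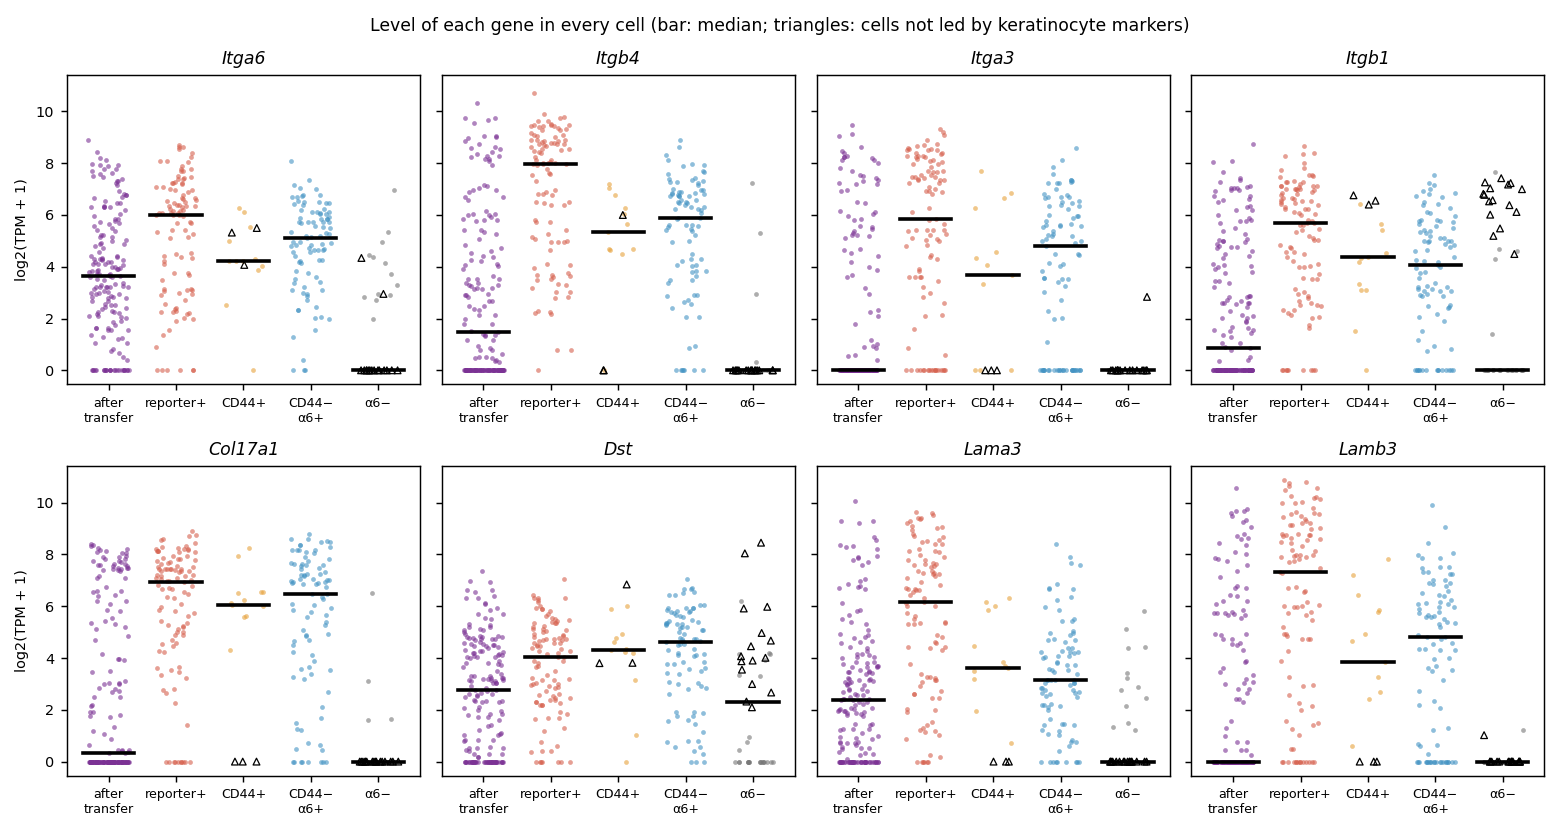
Level of each of the 8 genes in every cell as log2(TPM + 1) on the vertical axis, by gate on the horizontal axis, with bars at medians and open triangles for cells not led by keratinocyte markers. Reporter-positive cells reach the highest Lamb3 levels (up to 1883.69 TPM), and in the α6-negative gate Itgb1 and Dst are carried mainly by triangles.

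**Figure D2:**
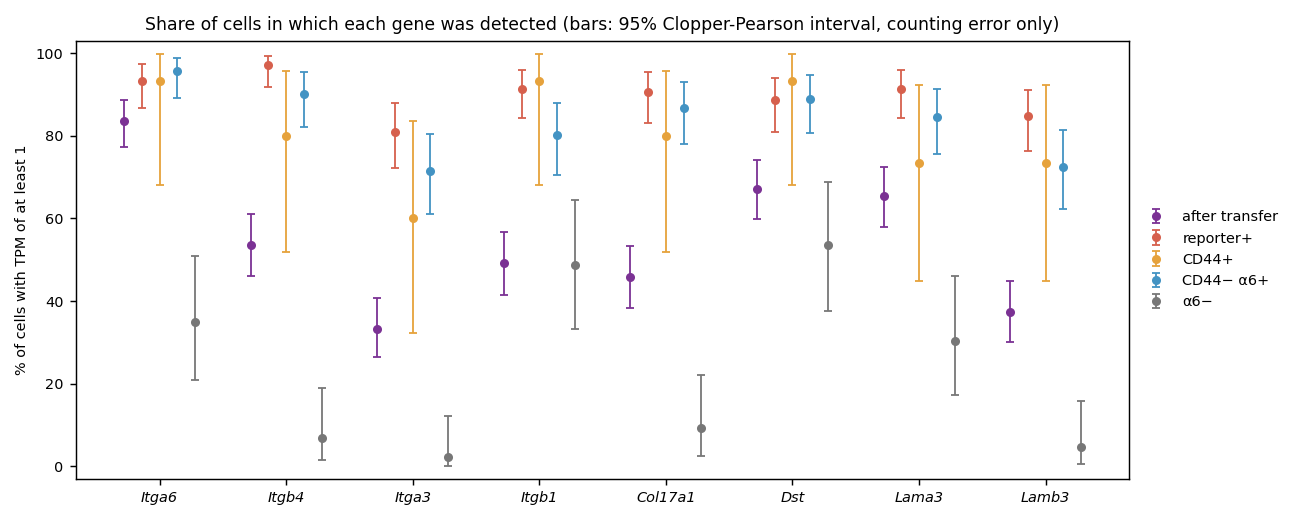
Percent of cells with a TPM of at least 1 for each gene, by gate, with 95% Clopper-Pearson intervals that cover counting error only. Itga3, Itgb4, Lamb3 and Col17a1 lie below 10% in α6-negative cells, and Itgb1 and Dst near 50%.

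Counted per cell, the full set of genes was most frequent on the reporter-positive plate CSC1, and cells after transfer covered the whole range. All 8 genes were detected together in 46 cells after transfer (25.99%), in 73 reporter-positive (69.5%), 6 of 15 CD44+, 50 of 91 CD44-negative α6+ (54.9%) and 0 of 43 α6-negative cells. With 0 of 43 cells, the upper limit of the 95% Clopper-Pearson interval was 8.22%. At most 2 of the 8 were found in 52 cells after transfer (29.4%), 3 reporter-positive, 0 CD44+, 2 CD44-negative α6+ and 32 α6-negative cells (74.4%). The 5 components of the mature skin hemidesmosome (Itga6, Itgb4, Col17a1, Dst and the linker plectin, Plec) occurred together in 35.03% of cells after transfer, 79.05% of reporter-positive, 9 of 15 CD44+, 73.6% of CD44-negative α6+ and 2.33% of α6-negative cells. Plec itself was detected in 98.3% of cells after transfer and in 40 of 43 α6-negative cells. The plates of a gate differed in the share of cells with all 8 genes, which was 28.7% on OT2 and 23.3% on OT_B after transfer, and 80.8% on CSC1 and 43.75% on CSC2 among reporter-positive cells. On CSC2, and among the 7 reporter-positive libraries without a repeat labelled after therapy (3 of 7), the share was thus below that of CD44-negative α6+ cells.

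**Figure D3:**
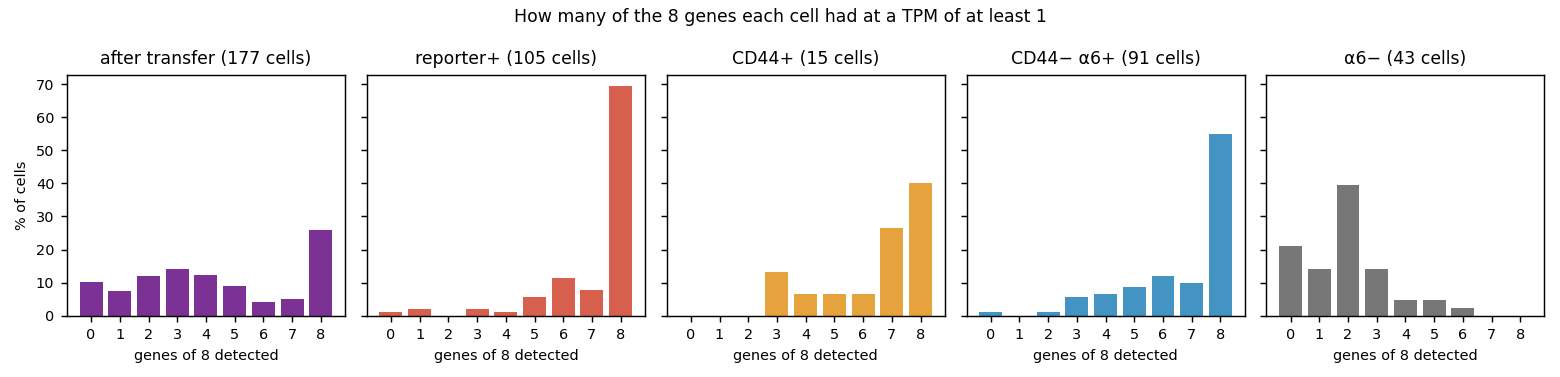
Percent of cells (vertical axis) by the number of the 8 genes detected (horizontal axis), 1 panel per gate. All 8 were found in 69.5% of reporter-positive cells (80.8% on plate CSC1 and 43.75% on CSC2), and cells after transfer spread over all values from 0 to 8.

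Reporter-positive cells, marked by the TGF-beta-responsive reporter, were compared with CD44-negative α6+ cells. Laminin chains and integrin subunits were higher in reporter-positive cells, and the hemidesmosome linker genes were not. Folds here compare mean TPM + 1, which understates changes of low genes, and genes with a mean of at least 1 TPM in either gate were counted. At least 2-fold higher were 5 of the 8, a size reached upwards by 9.80% of 11887 genes, and 0 were at least 2-fold lower, against 4.78% of all genes. The median log2 ratio was 1.31 over the 8 genes and 0.07 over all genes. Lama3 averaged 162.04 TPM in reporter-positive cells and 27.1 TPM in CD44-negative α6+ cells (log2 ratio 2.54). The ratio was 2.30 for Lamb3, 1.79 for Itgb4, 1.43 for Itga3, 1.196 for Itgb1 and 0.93 for Itga6. Col17a1 (0.17) and Dst (-0.41) stayed within 2-fold. Of 12 other hemidesmosome and basement membrane genes, 10 passed the filter and 4 were at least 2-fold higher (Lamb1, Hspg2, Col4a1 and Col4a2), with 0 lower.

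These differences rested largely on plate CSC1. Medians on CSC1 and CSC2 were 339.42 and 31.18 TPM for Itgb4, 121.55 and 8.24 TPM for Lama3, 251.48 and 25.64 TPM for Lamb3 and 162.99 and 5.12 TPM for Itga3. Without CSC1, Lama3 (1.01) and Lamb3 (1.23) alone were still at least 2-fold higher than in CD44-negative α6+ cells, and Dst was lower (-1.29). Of all genes, 12.2% were then higher and 7.06% lower. The median number of genes was 7769 on CSC1 and 7575 on CSC2. The summed TPM of 6 differentiation genes (Krt1, Krt10, Krtdap, Sbsn, Lor and Ivl) had a median of 104.93 on CSC1 and 1139.57 on CSC2. Krt10, 1 of the 6, went the other way. Its median was 3.36 TPM on CSC1 (detected in 58 of 73 cells) and 0 TPM on CSC2 (11 of 32 cells). The part of these plate differences in the result was not tested. Among the 7 reporter-positive libraries without a repeat labelled after therapy, Itga3 was lower than in CD44-negative α6+ cells (log2 ratio -1.31). There 2 of the 8 genes were at least 2-fold higher (14.3% of all genes) and 1 lower (34.3% of all genes). The median log2 ratio of all genes was -0.49 with these 7 libraries.

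Reporter-positive cells set against the 15 CD44+ cells, which share CD44 but lack the reporter and CD34, gave a like picture. The CD44-negative comparison uses the same reporter-positive cells, so the 2 are not independent. All but 7 of the reporter-positive cells and all 15 CD44+ cells had a repeat labelled after therapy. Xist was found in 14 of the 15 CD44+ cells and in 0 reporter-positive cells, so gate and sex largely coincided. At least 2-fold higher were 5 of the 8 (12.6% of 12928 genes) and 0 lower (16.5% of all genes). The median log2 ratio was 1.71 over the 8 genes and -0.03 over all genes. Lamb3 averaged 352.1 TPM in reporter-positive cells and 43.8 TPM in CD44+ cells (log2 ratio 2.98), followed by Lama3 (2.75), Itgb4 (2.48), Itga3 (1.83) and Itga6 (1.59). Itgb1 (0.98), Col17a1 (0.69) and Dst (-0.31) stayed within 2-fold. Among CD44+ cells, the 1 fibroblast-led and 2 pericyte or muscle-led cells had Itgb1 at 92.8, 107.4 and 83.5 TPM, Dst at 113.8, 13.07 and 12.96 TPM, and Itga3, Col17a1, Lama3 and Lamb3 at 0. The fibroblast-led cell had Itga6 at 38.94 and Itgb4 at 62.96 TPM. The 2 pericyte or muscle-led cells had Itga6 at between 15.8 and 44.15 TPM and Itgb4 at 0. With keratinocyte-led cells alone, Itgb1 was at least 2-fold higher as well (log2 ratio 1.65). Without CSC1, 3 of the 8 were higher (Lamb3 1.91, Itgb4 1.48 and Lama3 1.22) and Dst was lower (-1.19). Of all genes, 15.05% were then higher and 20.08% lower.

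CD44+ cells and CD44-negative α6+ cells lay within 2-fold of each other in these genes. None of the 8 was at least 2-fold higher (16.8% of 12612 genes were) or lower (6.18% were), and the median log2 ratio was -0.46 over the 8 genes and 0.09 over all genes. Log2 ratios ran from -0.69 for Itgb4 (51.4 TPM in CD44+ cells and 83.4 TPM in CD44-negative α6+ cells) to 0.22 for Itgb1 (37.5 TPM in CD44+ cells and 32.2 TPM in CD44-negative α6+ cells). Itgb1 averaged 94.55 TPM in the 3 CD44+ cells not led by keratinocyte markers. In the 12 keratinocyte-led CD44+ cells it averaged 23.2 TPM, below the mean of CD44-negative α6+ cells. The 15 CD44+ cells limit the precision, and the interval for Itgb4 detection, 51.9% to 95.7%, contained that of CD44-negative α6+ cells. All 15 also had a repeat labelled after therapy. Xist was found in 14 of these 15 and in 43 of the 91 CD44-negative α6+ cells. Other hemidesmosome and basement membrane genes were compared over all 15 CD44+ cells, of which 3 were not keratinocyte-led. Of 12 such genes 7 were at least 2-fold higher in the mean, among them Nid1 (nidogen 1, log2 ratio 3.64), and Col7a1 was lower (-1.20). Nid1 was detected in 5 of 15 CD44+ cells and in 5 of 91 CD44-negative α6+ cells. Summed fibroblast markers reached up to 1335.5 TPM in a CD44+ cell and up to 189.1 TPM in a CD44-negative α6+ cell. Summed pericyte and muscle markers reached up to 3250.4 TPM in a CD44+ cell and up to 327.2 TPM in a CD44-negative α6+ cell. The part of cells with such markers in the result was not tested.

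CD44-negative α6+ cells were set against α6-negative cells, a contrast of cells with and without surface α6. The 8 genes split. At least 2-fold higher in CD44-negative α6+ cells were 6 of the 8 (8.66% of 13507 genes) and 0 were lower (25.7% of all genes). The median log2 ratio was 3.21 over the 8 genes and -0.31 over all genes. Lamb3 averaged 70.6 TPM in CD44-negative α6+ cells and 0.0549 TPM in α6-negative cells (log2 ratio 6.08). The log2 ratio was 5.51 for Itga3, 5.13 for Col17a1, 3.93 for Itgb4, 2.48 for Lama3 and 2.44 for Itga6. Itgb1 (-0.42) and Dst (0.29) were within 2-fold. Other basement membrane genes ran the other way: 9 of 12 were at least 2-fold lower in CD44-negative α6+ cells, and Lama5 (1.75) was higher. The median number of genes was 6810 in CD44-negative α6+ cells and 5521 in α6-negative cells. Among libraries with 5000 to 8000 genes 7 of the 8 were at least 2-fold higher (9.58% of all genes), now with Dst (log2 ratio 1.22). Itgb1 was at -0.00.

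The α6-negative gate held 27 cells led by keratinocyte markers, 13 by fibroblast markers and 3 by pericyte and muscle markers, and the 8 genes fell into opposite sets in them. Itgb1 and Dst were detected in all 13 fibroblast-led cells (means 98 and 41.8 TPM) and in all 3 pericyte or muscle-led cells (means 105.8 and 118.5 TPM). In the 27 keratinocyte-led cells Itgb1 was detected in 5 and Dst in 7. Itga6 and Lama3 had the reverse pattern, with 13 of 27 keratinocyte-led cells each, and 2 and 0 of the 13 fibroblast-led cells. Itgb4, Itga3, Col17a1 and Lama3 were listed at 0 in all fibroblast-led cells. Keratinocyte-led α6-negative cells were themselves poor in the rest: Itgb4 was detected in 3 of 27, Col17a1 in 4, Lamb3 in 1 and Itga3 in 0. Of the 13 keratinocyte-led cells with Lama3, 12 had no Lamb3, and of the 13 with Itga6, 10 had no Itgb4. The single richest cell had 6 of the 8, with Itgb4 at 149.84, Col17a1 at 89.66, Lama3 at 55.87 and Itga6 at 16.92 TPM. CD44-negative α6+ cells had a median Krt14 of 7130.49 TPM and a median Krt5 of 1769.42 TPM, against 3744.66 TPM and 0 TPM in these keratinocyte-led α6-negative cells. The differentiation genes summed to a median of 782.83 TPM in CD44-negative α6+ cells, against 1190.3 TPM in the keratinocyte-led α6-negative cells, whose median number of genes was 5372. Median Krt10 alone was 7.21 TPM in CD44-negative α6+ cells and 7.2 TPM in the keratinocyte-led α6-negative cells.

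With keratinocyte-led cells alone on both sides, Itgb1 and Dst also lay higher in CD44-negative α6+ cells, with log2 ratios of 1.599 and 2.19, and no ratio is given for Itga3, which was listed at 0. The fibroblast marker list (9 genes, all detected) summed to between 267.2 and 19000.5 TPM in the 16 α6-negative cells not led by keratinocyte markers, and to at most 120.2 TPM in the 27 keratinocyte-led ones, where Dcn, Lum, Dpt and Mfap5 were at 0. A pair of other basement membrane genes were high in fibroblast-led cells: Col7a1, the anchoring fibril collagen, averaged 1000.3 TPM there (10 of 13 cells) and 45.2 TPM in keratinocyte-led α6-negative cells (3 of 27), and Nid1 was detected in 13 of 13 and in 5 of 27.

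**Figure D4:**
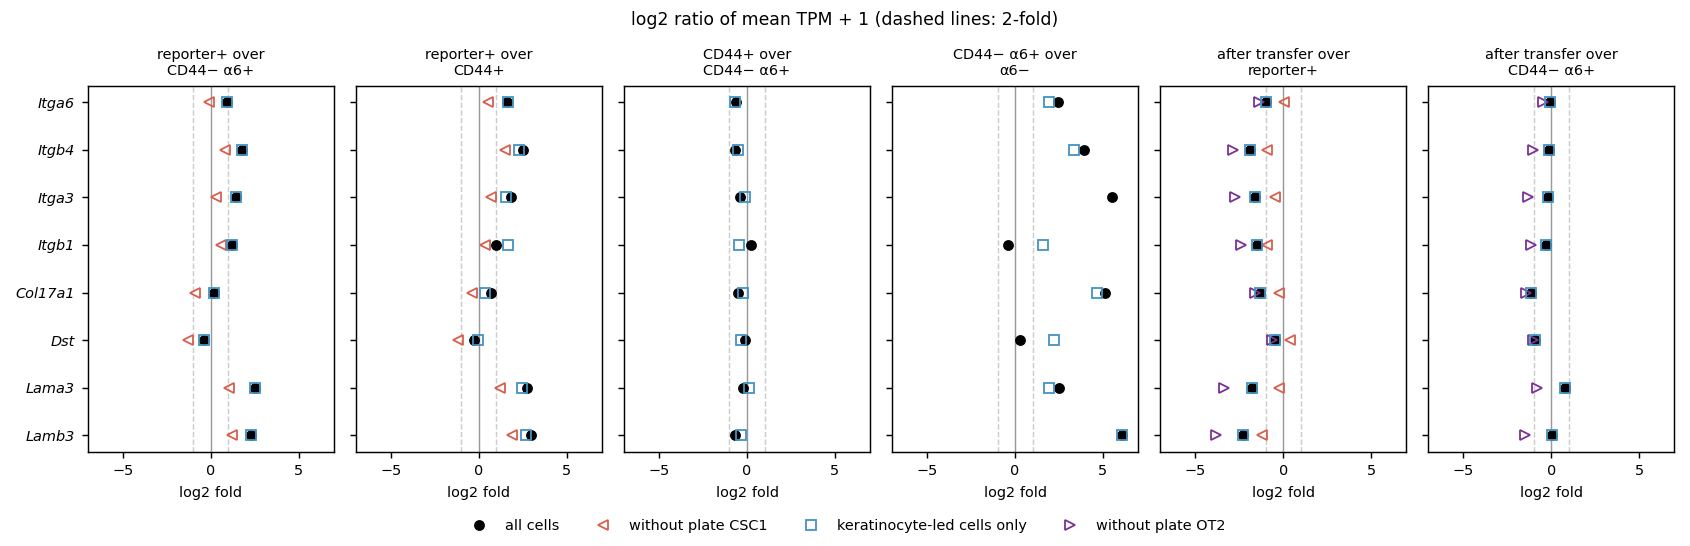
log2 ratio of mean TPM + 1 for each gene (rows) in the 6 comparisons (panels), for all cells, without plate CSC1, without plate OT2 and for keratinocyte-led cells, with dashed lines at 2-fold. Lamb3 is highest of the 8 in the comparison of CD44-negative α6+ with α6-negative cells (6.08), and values without CSC1 lie closer to 0 for Lama3, Lamb3 and Itgb4; Itga3 has no keratinocyte-led point against α6-negative cells, where it was listed at 0.

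Cells after transfer were lower than reporter-positive cells for most of the 8 genes. At least 2-fold lower were 6 of the 8 (8.60% of 11711 genes) and 0 higher (3.17% of all genes). The median log2 ratio was -1.56 over the 8 genes and -0.22 over all genes. Lamb3 averaged 72.3 TPM in cells after transfer and 352.1 TPM in reporter-positive cells (log2 ratio -2.27). Itgb4 (-1.91), Lama3 (-1.78), Itga3 (-1.60), Itgb1 (-1.51) and Col17a1 (-1.34) followed, Itga6 lay just inside the 2-fold line (-0.996), and Dst was at -0.49. Related genes were also lower, with 7 of 10 other hemidesmosome and basement membrane genes and 8 of 11 integrin adaptor genes at least 2-fold lower, among them the tetraspanin Cd151 (-1.08) and the integrin activator Fermt1 (kindlin-1, -1.84). Without CSC1 only Lamb3 stayed at least 2-fold lower (-1.20), a size reached downwards by 11.7% of all genes. Adding OT_C and OT_D, labelled after therapy but repeats of cells of the reporter-positive and CD44+ plates, also left 1 of the 8 (1.86% of all genes). Against the 7 reporter-positive libraries without a repeat labelled after therapy, Itga3 (1.14) and Lama3 (0.23) were higher in cells after transfer. In this setting 1 of the 8 was at least 2-fold higher (30.4% of all genes) and 2 were lower (15.1%). The median log2 ratio was then -0.72 over the 8 genes and 0.36 over all genes.

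Against CD44-negative α6+ cells, the mean and the typical cell after transfer gave different answers. By mean TPM, 1 of the 8 was at least 2-fold lower (4.71% of 11503 genes) and 0 higher (3.91%), with a median log2 ratio of -0.14 over the 8 genes and -0.13 over all genes. Col17a1 averaged 51.2 TPM in cells after transfer and 116.8 TPM in CD44-negative α6+ cells (log2 ratio -1.17), Dst was at -0.90 and Lama3 at 0.75. The other 5 lay between -0.31 and 0.03. By the mean of log2(TPM + 1), which weighs every cell alike, 7 of the 8 were at least 2-fold lower, a size reached by 3.11% of all genes. Col17a1 was then at -2.83, Itgb4 at -2.39 and Lama3, the exception, at -0.54. The detection shares were lower for all 8 genes, from 33.3% after transfer against 71.4% in CD44-negative α6+ cells for Itga3 to 83.6% after transfer against 95.6% in CD44-negative α6+ cells for Itga6. A minority of cells thus carried the mean after transfer: the upper quartile of Lamb3 was 25.52 TPM and its highest value 1497.81 TPM. Plates mattered here too. On OT_B alone 6 of the 8 were at least 2-fold lower (7.31% of all genes). On OT2 alone 1 was higher (Lama3, log2 ratio 1.505), against 5.21% of all genes, and none lower (4.71%).

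Other integrins, which bind collagen, fibronectin and further ligands, were lower in level than the laminin receptors in the α6-sorted gates. Of 11 such subunits, 6 passed the filter in reporter-positive against CD44-negative α6+ cells, with a median log2 ratio of 0.61. At least 2-fold higher in reporter-positive cells were 2 of the 6 (9.80% of all genes), and 0 were lower (4.78%). The higher ones were Itga2, the collagen receptor subunit, at a mean of 9.07 TPM in reporter-positive and 2.07 TPM in CD44-negative α6+ cells, and Itga5, the fibronectin receptor subunit, at 26.9 TPM in reporter-positive and 6.35 TPM in CD44-negative α6+ cells. In CD44-negative α6+ cells against α6-negative cells 2 of 11 were higher (8.66% of all genes) and 8 lower (25.7%). Of the 43 α6-negative cells, 16 were not keratinocyte-led, and their part in these counts was not tested. Itgb6, the epithelial partner of αv, averaged 6.22 TPM in CD44-negative α6+ cells and 0.593 TPM in α6-negative cells, while Itgav averaged 19.1 TPM in CD44-negative α6+ cells and 42.8 TPM in α6-negative cells. Cells after transfer had 3 of 6 at least 2-fold lower than reporter-positive cells (Itga2 at -1.44, Itga5 at -1.66 and Itgb6 at -1.31) and 0 higher. Of all genes 8.60% were lower and 3.17% higher there. Against CD44-negative α6+ cells none of 6 was called in either direction, with 4.71% of all genes lower and 3.91% higher. Ratios of these genes were not recomputed by plate.

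Within the larger α6-sorted gates and after transfer, cells with more of one of the 8 transcripts also had more of the others. Values are Spearman correlations across cells of a gate, which share plates, sort and depth, so they describe these cells and carry no p. The median over the 28 pairs was 0.74 in cells after transfer, 0.81 in reporter-positive, 0.28 in CD44+, 0.72 in CD44-negative α6+ and 0.05 in α6-negative cells. With the number of genes detected partialled out the medians were 0.64 after transfer, 0.81 in reporter-positive, 0.34 in CD44+, 0.73 in CD44-negative α6+ and 0.03 in α6-negative cells. Within single plates the median was 0.74 on CSC1, 0.73 on CSC2, 0.74 on OT2 and 0.73 on OT_B. The highest pair among reporter-positive cells was Lama3 with Lamb3, at 0.91. The highest pair after transfer and in CD44-negative α6+ cells was Col17a1 with Lamb3, at 0.82 after transfer and 0.86 in CD44-negative α6+ cells. The receptor pairs were Itga6 with Itgb4, at 0.78 after transfer, 0.80 in reporter-positive and 0.78 in CD44-negative α6+ cells, and Itga3 with Itgb1, at 0.77 after transfer, 0.77 in reporter-positive and 0.80 in CD44-negative α6+ cells. Neither heterodimer was the highest pair in any of these 3 gates. The lowest pair of each of these gates held Dst. These pairs were Dst with Lama3 at 0.62 after transfer, with Lamb3 at 0.59 in reporter-positive and with Itgb1 at 0.47 in CD44-negative α6+ cells. By the median correlation with the other 7 genes, Dst was lowest in reporter-positive (0.64) and CD44-negative α6+ cells (0.62). After transfer Lama3 was lowest (0.646), next to Dst (0.652). With the number of genes detected partialled out, the lowest pair after transfer was Itgb4 with Lama3, at 0.47. In these 3 gates every gene correlated with all 7 others above the 95th percentile of its correlations with 9052 genes.

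**Figure D5:**
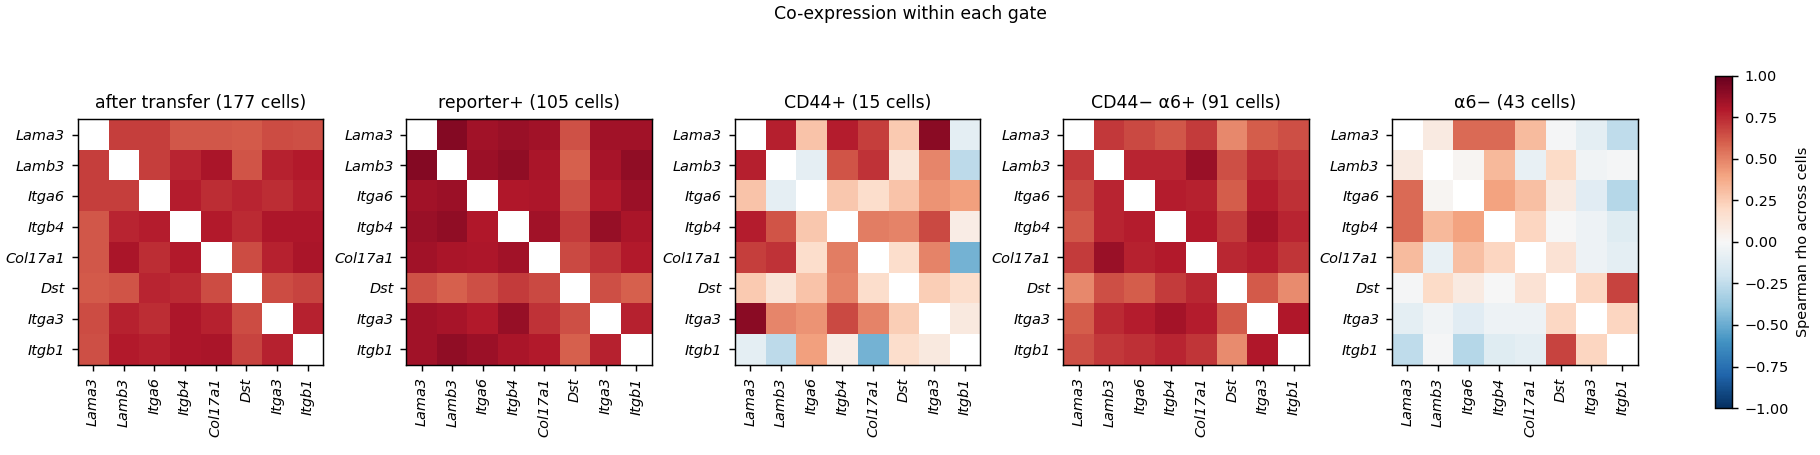
Spearman correlation across cells for the 8 genes, 1 panel per gate, on a colour scale from -1 (blue) to 1 (red). The panels after transfer, reporter-positive and CD44-negative α6+ are red throughout (medians 0.74, 0.81 and 0.72), and in the α6-negative panel the highest pair is Itgb1 with Dst (0.68).

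In the α6-negative gate the pattern broke into the sets seen above. Itgb1 and Dst were the highest pair (0.68), Itga6 and Lama3 reached 0.56, and Itgb1 ran against Itga6 (-0.29) and Lama3 (-0.25). Among its 27 keratinocyte-led cells the median over pairs was 0.32, and Itga3 had no value because it was at 0 throughout. The CD44+ gate had Itga3 with Lama3 at 0.90 and Itgb1 with Col17a1 at -0.47, over 15 cells of which 3 were not keratinocyte-led. Among its 12 keratinocyte-led cells the median was 0.41.

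The genes most alike in pattern were sought among 8261 genes detected in at least 20% of the cells of each of the 4 gates with at least 40 cells, by the mean of the within-gate correlations. For Itgb4 these were the prostaglandin transporter Slco2a1 (mean rho 0.70), Plec (0.60) and Col18a1 (0.57). For Itga6 they were Cdcp1 (0.59), Plec (0.58) and Tgfbi (0.57), and for Lama3 Cdcp1 (0.60), Slco2a1 (0.54) and Aplp2 (0.51). Plectin, the cytoplasmic partner of β4, thus ranked second for both subunits of its receptor in these means over 4 gates. In the α6-negative gate alone its correlation was 0.13 with Itga6 and 0.15 with Itgb4. For Lamb3 they were the basement membrane collagen Col18a1 (0.62), the proteoglycan agrin, Agrn (0.61), and Ftl1 (0.58). Col17a1 had Col18a1 (0.58), Slco2a1 (0.58) and the laminin receptor Bcam (0.56). For Itga3 they were Agrn (0.63), Cav1 (0.62) and Cd276 (0.62). Itgb1 had perlecan, Hspg2 (0.78), the collagen chaperone Serpinh1 (0.75) and Htra1 (0.75), and Dst had Agrn (0.66), Hspg2 (0.63) and Serpinh1 (0.61). The α6-negative gate enters these means with its fibroblast-led cells, which were rich in Itgb1 and Dst. Over the other 3 gates, a choice made after seeing the data, Plec ranked first for Dst (0.67) and second for Itga6 (0.73). It was not among the first 3 for Itgb4, where Hspg2 (0.78) and Cav1 (0.76) were.

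Set against differentiation, the 8 genes were lower where the summed TPM of the differentiation list was higher. High genes weigh most in this sum: in reporter-positive cells Krtdap averaged 1651.8 TPM and Krt10 7.15 TPM. Correlation with the summed differentiation list ran from -0.77 for Itgb4 to -0.57 for Lama3 in cells after transfer, from -0.61 for Itgb4 to -0.44 for Itga6 in reporter-positive cells, and from -0.71 for Col17a1 to -0.55 for Itga6 in CD44-negative α6+ cells. Basal keratins split by gate. Krt5 correlated from 0.51 (Lama3) to 0.77 (Itgb4) after transfer and from 0.47 (Dst) to 0.65 (Itga6) in CD44-negative α6+ cells, and from -0.21 (Itgb1) to 0.00 (Dst) in reporter-positive cells. Krt14, the pairing partner of Krt5, correlated from -0.42 (Lama3) to -0.11 (Dst) in reporter-positive cells. On plate CSC1 it reached -0.54 for Lama3 and on CSC2 -0.11, so the inverse relation of Lama3 with Krt14 was stronger on CSC1. The number of genes detected also correlated with the 8 genes after transfer, from 0.44 (Lamb3) to 0.60 (Itgb4), and its part in these relations was not tested.

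Repeat libraries were picked by the agreement of their whole profiles. Repeats that agreed badly were not counted, so the values below cannot show how far repeats can differ. In 240 such pairs, pooled over gates, levels correlated from 0.95 for Itgb1 to 0.99 for Itgb4. The detection call was the same in 94.6% of pairs for Lamb3 and in up to 97.5% for Col17a1. In the 59 pairs of OT1 with OT_B levels correlated at 0.855 for Itgb1 and 0.88 for Itga6, with the same call for Itga6 in 88.1%. Lamb3 also had the same call in 88.1% of the 42 pairs of OT_D with CSC2 and CD44. Mean Itgb4 was 184.6 and 164.5 TPM in the first and second library of these pairs, and mean Dst 18.2 and 18.5 TPM. The labels do not say at which step such pairs part, so the loss of a transcript before that step was not tested.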

How the data were processed

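The authors deposited TPM, a length-corrected share of transcripts, for 46517 genes in each single-cell library, and 92 ERCC spike-in RNAs were left out. The submitters' processing notes name Bowtie2 2.2.9, RSEM 1.2.30 and the build mm10, with no setting for multi-mapping reads. TPM holds no read depth, and genes detected per library (TPM of at least 1) are given in its place. Libraries with at least 2000 such genes on plates CSC1, CSC2, CD44, DN, TN, OT2 and OT_B were used, and OT1, OT_A, OT_C and OT_D, which hold repeats, were left out. A cell was led by the cell type whose marker list had the highest mean log2(TPM + 1).

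Folds are log2 ratios of mean TPM + 1 for genes with a mean of at least 1 TPM in either group, called at 2-fold. With no animal named, no test was made between groups, and Clopper-Pearson intervals cover counting error over cells only. TPM of a library are shares, and 5 ribosomal rows took a median of 65.6% of the TPM.

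Repeat libraries were found as mutual best matches of whole profiles (Pearson r over 13828 genes, with a margin of at least 0.05 or an r of at least 0.88), which gave 248 pairs. Their median r was 0.914 and their lowest 0.668, and the 99th percentile over all pairs of libraries was 0.742. Matching by well name, as first planned, failed where wells of repeat plates were shifted. The 8 genes, the other lists and the marker lists were chosen with earlier results of these data known. The rule for named genes took the 8, 10 genes of the other lists, and for each of the 8 the 3 genes most alike in pattern, and Lamb1, Hspg2, Col4a1 and Col4a2 were also named once their values were seen. 1 gene of the other lists is not reported here. Python 3.11.15, pandas 2.3.3 and scipy 1.17.1 were used, and gene positions came from GENCODE M21.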

Additional observations from a re-analysis of the deposited data

Results flagged for a closer look

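A second row named Dst (ENSMUSG00000103888), which has no entry in the GENCODE M21 annotation, entered none of the comparisons. It was detected in 1 cell after transfer, 0 reporter-positive, 1 of 15 CD44+ and 0 of 91 CD44-negative α6+ cells, and in 8 of 43 α6-negative cells (18.6%, 95% Clopper-Pearson interval 8.39% to 33.4%). It is listed here because the row lies outside the main measurement. Within the α6-negative gate it was found in 7 of 13 fibroblast-led, 1 of 3 pericyte or muscle-led and 0 of 27 keratinocyte-led cells, and the CD44+ cell with it, at 7.85 TPM, was fibroblast-led. Its highest value was 18.67 TPM. What the row measures, and how reads were divided between it and the main Dst row, was not tested.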

How the results depend on the processing

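Counts of the 8 genes at least 2-fold higher or lower stayed within 1.5 times of those reported, except as follows. Shares of all genes are given in brackets. Against CD44-negative α6+ cells, cells after transfer had 7 lower by the mean of log2(TPM + 1) (3.11%). They had 2 lower after rescaling without spike-in and ribosomal rows (10.998%), and 6 lower without OT2 (7.31%). Without OT_B they had 1 higher (5.21%) and 0 lower (4.71%). With plates OT_A and OT1 in place of OT2 and OT_B they had 2 lower (3.95%). With OT_C and OT_D added they had 2 higher (5.603%) and 0 lower (2.79%). They had 2 lower with the CD44-negative libraries that had Xist (6.48%). With those that had Y-linked transcripts they had 1 higher (5.57%) and 0 lower (5.805%). CD44+ cells had 1 lower against CD44-negative α6+ cells with 5000 to 8000 genes per library (7.58%) and with the Xist libraries (6.74%). Without CSC1, reporter-positive cells had 2 higher (12.2%) and 1 lower (7.06%) against CD44-negative α6+ cells. Against CD44+ cells they had 3 higher (15.05%) and 1 lower (20.08%). Without CSC1, cells after transfer had 1 lower against reporter-positive cells (11.7%), as with OT_C and OT_D added (1.86%). A further setting kept the 7 reporter-positive libraries without a repeat labelled after therapy. These had 2 higher (14.3%) and 1 lower (34.3%) against CD44-negative α6+ cells, with Itga3 at -1.31. Cells after transfer had 1 higher (30.4%) and 2 lower (15.1%) against these 7 libraries, with Itga3 at 1.14, Lama3 at 0.23 and the median of all genes at 0.36. Median co-expression was 0.41 in keratinocyte-led CD44+ cells, 0.32 in keratinocyte-led α6-negative cells and 0.64 after transfer given the number of genes. The causes were not tested, beyond the smaller number of cells where plates or libraries were left out. Rescaling moved the median log2 ratio of all genes to -0.34 after transfer over CD44-negative α6+ cells and to -0.20 in reporter-positive over CD44+ cells, and among log2 ratios of at least 2-fold no direction turned with it. The pseudocount, the filter on low values and the minimum of 4000 genes changed no direction of any log2 ratio. The settings by Xist, by Y-linked transcripts, by repeats and over 3 gates were chosen after seeing the data. No paired analysis was possible because no animal is named and each group is 1 sample.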
